A study of Homo sapiens with 8 samples.

Results

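Glycolytic enzymes and genes induced by hypoxia were followed in 8 RNA-seq libraries of 2 triple-negative breast cancer cell lines, MDA-MB468 and BT549. The 41 members were chosen by gene symbol from 55679 gene identifiers in the count table: 24 belong to glycolysis and the handling of its end products, and 17 are subunits, regulators or targets of the hypoxia-inducible factors (HIF). All 41 had a single identifier in the table and passed the filter on low counts, and all 41 also passed it in libraries other than those of BT549 CE cells.

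Each line was represented by parental cells and by CE (chronic exposure) cells, a single resistant population per line that had been grown in rising concentrations of Acetalax up to 40 μmol/L and then kept without drug for 2 weeks. Untreated controls and cells given Acetalax at 1 μmol/L over 6 hours were sequenced for each of these 4 backgrounds, with 1 library per condition. Acetalax (oxyphenisatin acetate) is a laxative compound to which the parental cells of both lines are sensitive. Because each line gave 1 CE population, the effect of long exposure and the properties of that one population cannot be told apart.

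Glycolysis splits glucose into pyruvate in the cytosol, first by a preparatory phase that spends ATP and then by a payoff phase that returns it, and pyruvate is either oxidised in mitochondria or reduced to lactate and exported. HIF consists of an oxygen-labile alpha subunit (HIF1A or EPAS1) and a stable beta subunit. With oxygen present, the prolyl hydroxylases EGLN1 and EGLN3 mark the alpha subunit for destruction, and when it escapes this mark it binds a short core sequence near many glycolytic genes. Tumour cells often hold this program high even when oxygen is plentiful. The alpha subunits are controlled mainly at the protein level, which RNA-seq does not measure.

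The libraries held between 42261122 and 54241728 counts on genes. The mitochondrial share of the counts was 7.32% and 7.29% in BT549 parental cells (control and Acetalax) and 5.08% and 4.00% in BT549 CE cells, against a range of 7.89% to 10.0% in MDA-MB468. Marker genes told the lines apart: EPCAM, an epithelial adhesion molecule, lay between 373 and 428 CPM in MDA-MB468 and did not exceed 0.189 CPM in BT549, and vimentin (VIM) lay between 895 and 1492 CPM in BT549 and did not exceed 8.73 CPM in MDA-MB468. The oestrogen receptor ESR1 did not exceed 4.92 CPM, and the leukocyte gene PTPRC did not exceed 0.783 CPM in any library. The receptor gene ERBB2 lay between 43.4 and 92.2 CPM. The progesterone receptor PGR had 34 and 4 counts in BT549 CE cells (control and Acetalax) and 0 counts in every other library. Levels here are CPM, counts scaled to a common library size by edgeR's TMM method, unless stated otherwise.

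The promoters of 6 members that stood far apart between BT549 CE and parental cells are shown. They were picked because ACGTG, a form of the HIF core sequence, lies just before their start sites. Each is a stretch of 100 bases upstream of a RefSeq start site in GRCh38.p14 (the counts were made on hg19), read 5′ to 3′ along the gene's strand, with ACGTG or its reverse complement CACGT in capitals. The stretches are chr9:35673828-35673927 (+) for CA9, chr17:82228939-82229038 (+) for SLC16A3, chr17:28576896-28576995 (-) for ALDOC, chr10:73096901-73097000 (-) for P4HA1, chr10:131982005-131982104 (-) for BNIP3 and chr2:172555990-172556089 (+) for PDK1.
CA9: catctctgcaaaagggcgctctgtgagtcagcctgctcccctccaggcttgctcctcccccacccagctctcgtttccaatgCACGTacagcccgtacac
SLC16A3: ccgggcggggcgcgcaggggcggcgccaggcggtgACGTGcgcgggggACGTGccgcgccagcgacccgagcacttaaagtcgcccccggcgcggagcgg
ALDOC: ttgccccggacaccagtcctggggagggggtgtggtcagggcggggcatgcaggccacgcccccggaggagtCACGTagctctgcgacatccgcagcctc
P4HA1: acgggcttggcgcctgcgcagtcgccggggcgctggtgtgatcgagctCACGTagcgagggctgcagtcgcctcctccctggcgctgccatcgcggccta
BNIP3: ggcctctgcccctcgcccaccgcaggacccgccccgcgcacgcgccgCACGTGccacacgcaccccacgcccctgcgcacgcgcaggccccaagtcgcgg
PDK1: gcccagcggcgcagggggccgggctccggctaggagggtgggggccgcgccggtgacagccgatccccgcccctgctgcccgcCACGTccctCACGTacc

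The core lay 18 bases before the start site in CA9, 28 in ALDOC, 8 in PDK1, 55 in SLC16A3, 86 in P4HA1 and 133 in BNIP3, counting the match nearest to the start. For genes with several start sites the one that holds the core is shown: 4 of the 5 SLC16A3 windows and 1 of the 2 PDK1 windows had no match. The BNIP3 match is a CACGTG. SLC16A3 and PDK1 each held the ACGTG core 2 times within the stretch shown, and neither stretch held CACGTG. RefSeq windows of 250 bases before to 50 bases after a start site were found for 36 of the 41 members (66 windows), with no entry for BNIP3L, SLC2A3, VEGFA, NDRG1 and SLC16A1. At least 1 match on either strand was present in 37.9% of the members' windows and in 21.4% of all 35116 windows. Among members called higher in BT549 CE cells (19 with a window) 50% of 30 windows held it, and among the other 17 members 27.8% of 36 windows did. Counted per gene, 68.4% of the 19 called and 47.1% of the 17 other members had a window with a match, against 24.9% of all genes. HK1 and PFKM alone had 7 windows each among the 36. Part of these matches lie in CACGTG, which reads the same on both strands and is also bound by MYC and related factors: 13.6% of the members' windows and 7.26% of all windows held CACGTG. A match describes letters in a window and is not a measured binding site. Only ACGTG was searched, so a window without a match may hold another form of the core.

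The first comparison asked how CE cells differ from the parental cells they came from. In BT549, 22 of the 41 members were higher in CE cells and 0 were lower at an adjusted p under 0.05 (edgeR's quasi-likelihood test over 19693 genes, with both the control and the Acetalax library of each background). That is 53.7% of the members, against 13.5% of all genes tested (8.16% higher and 5.39% lower). Called members came from both arms, 14 of 24 in glycolysis and 8 of 17 among HIF subunits and targets. In the control libraries alone the median log2 ratio was 0.76 over the 40 members with a ratio and -0.01 over all genes tested. The mitochondrial share given above was lower in both BT549 CE libraries, and its part in the result was not tested. Some markers moved with it as well: the fibroblast gene DCN had 2 and 1 counts in BT549 parental and 77 and 44 counts in BT549 CE cells, COL1A1 was at 946 and 1148 against 1338 and 1226 CPM, and the epithelial keratin KRT18 was at 6.66 and 4.41 against 49.7 and 31.7 CPM. EPCAM did not follow KRT18, with 8 and 4 counts in BT549 parental and 2 and 7 in BT549 CE cells. The mesenchymal genes were lower: VIM was at 1325 and 1492 against 895 and 1111 CPM, and ZEB1 at 86.0 and 67.9 against 60.6 and 55.2 CPM. The part of these markers was not tested either. In a bulk culture, more cells that express a gene and more RNA per cell cannot be told apart.

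**Figure D1:**
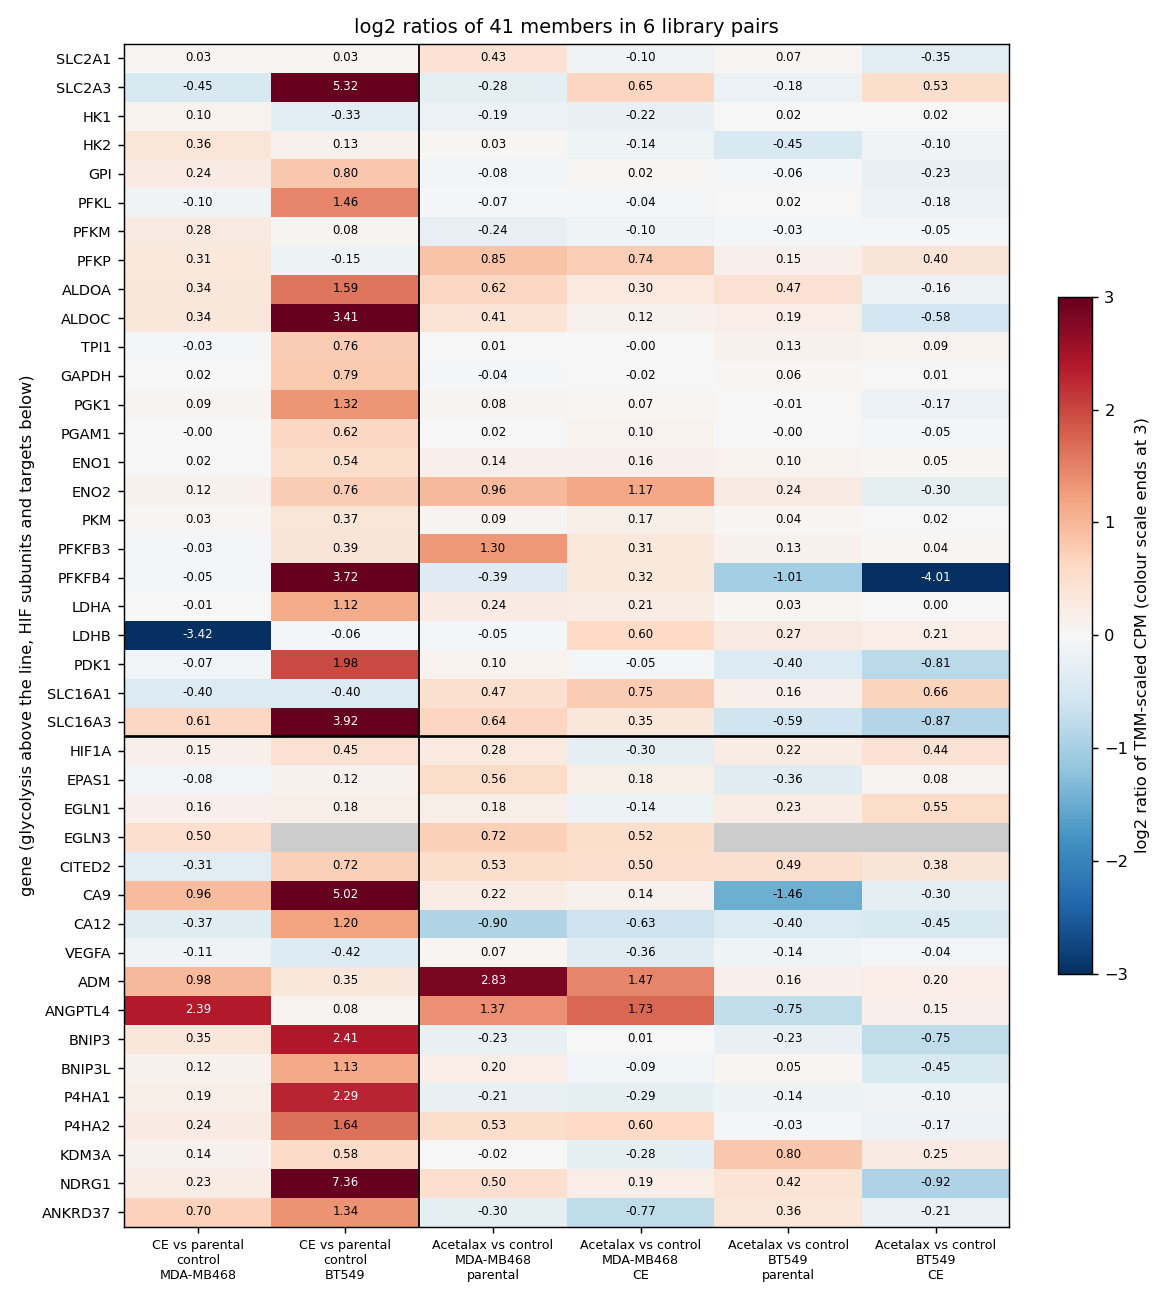
Log2 ratio of TMM-scaled CPM (columns: 6 library pairs; rows: the 41 members by role, glycolysis above the black line), coloured from blue (lower) to red (higher) with the value printed in each cell; grey marks EGLN3 in BT549, where no library had over 3 counts. The column of BT549 CE against parental control cells holds 23 members at least 1.5-fold higher and 0 at least 1.5-fold lower.

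At the entry of glucose, the transporter SLC2A3 (GLUT3, a high-affinity carrier; ENSG00000059804, hg19 chr12:8071826-8088871) stood at 1.16 and 1.02 CPM in BT549 parental cells (control, then Acetalax) and at 46.9 and 67.7 CPM in BT549 CE cells. In MDA-MB468 it stayed between 0.124 and 0.201 CPM, at 6 to 10 counts per library. Both BT549 CE libraries thus lay far above the 6 others, and the fitted log2 fold change in BT549 was 5.69 (SE 0.29, adjusted p = 3.1e-05). SLC2A1 (GLUT1), the widespread basal transporter, did not follow: it was at 101 and 106 CPM in BT549 parental cells and 103 and 80.6 CPM in BT549 CE cells (log2 fold change -0.17). Per length, SLC2A3 made up 1.04% of the summed FPKM of both transporters in BT549 parental control cells, 29.4% in BT549 CE control cells and 43.4% in BT549 CE cells with Acetalax.

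The preparatory phase showed 5 of 9 enzymes called higher in BT549 CE cells. Phosphofructokinase commits sugar to glycolysis, and its liver form PFKL was at 65.9 and 66.6 CPM in parental and 181 and 159 CPM in CE cells (log2 fold change 1.36, SE 0.12, adjusted p = 0.000487). The muscle form PFKM (105 and 102 against 110 and 107 CPM) and the platelet form PFKP (293 and 324 against 265 and 349 CPM) differed little and were not called. PFKL's share of the summed FPKM of these 3 forms was 12.4% in parental and 29.1% in CE control cells. PFKM shares exon sequence with SENP1 on the opposite strand, and because the strand counted is not given in the sources used here, its level and these shares are uncertain.

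Aldolase splits the phosphorylated sugar. ALDOC was at 1.46 and 1.67 CPM in BT549 parental and 15.7 and 10.5 CPM in BT549 CE cells, and at or under 0.562 CPM in all 4 MDA-MB468 libraries (log2 fold change in BT549 3.06, SE 0.31, adjusted p = 0.000868). ALDOA, the form most tissues use, was at 8.88 and 12.3 against 26.8 and 24.0 CPM (log2 fold change 1.30, SE 0.23, adjusted p = 0.0108). Its counts were low for a main glycolytic enzyme, from 376 to 1405 per library or 2.32 to 6.76 FPKM, and why was not tested, so its level is uncertain. TPI1, which interconverts the triose phosphates, rose from 879 and 962 to 1488 and 1589 CPM, and GPI, the isomerase after hexokinase, from 282 and 270 to 492 and 420 CPM (log2 fold changes 0.74 and 0.72). The hexokinases HK1 and HK2, which trap glucose in the cell, were not called, with log2 ratios between the BT549 controls of -0.33 and 0.13.

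Of the 6 payoff enzymes, 5 were higher in BT549 CE cells. PGK1, the first ATP-forming enzyme, had the largest fitted change of these, from 548 and 544 CPM to 1371 and 1221 CPM (log2 fold change 1.25, SE 0.12, adjusted p = 0.000532). GAPDH, which feeds it, went from 1727 and 1794 to 2982 and 2999 CPM (log2 fold change 0.76, SE 0.10, adjusted p = 0.00215). In both genes the CE libraries of BT549 were the highest of all 8. PGAM1, ENO1 and PKM, the last 3 steps to pyruvate, rose by smaller amounts, with log2 fold changes of 0.60, 0.51 and 0.36 (adjusted p = 0.0165, 0.0102 and 0.0484). ENO2, the neuronal enolase, was at 54.5 and 64.3 CPM in parental and 92.2 and 75.1 CPM in CE cells and was not called with all libraries.

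Genes that decide the fate of pyruvate and lactate followed. LDHA, which makes lactate, went from 690 and 704 to 1505 and 1510 CPM (log2 fold change 1.11, SE 0.11, adjusted p = 0.000887), while LDHB, whose enzyme favours the return to pyruvate, was at 15.2 and 18.3 against 14.5 and 16.8 CPM. PDK1, the kinase that shuts pyruvate out of mitochondrial oxidation, was at 13.4 and 10.2 against 52.9 and 30.1 CPM (log2 fold change 1.80, SE 0.25, adjusted p = 0.00328). SLC16A3 (MCT4), the lactate exporter of glycolytic cells, was at 2.46 and 1.62 against 37.3 and 20.4 CPM (log2 fold change 3.81, SE 0.41, adjusted p = 0.00114). The other lactate carrier, SLC16A1 (MCT1), was at 233 and 259 against 176 and 279 CPM, with overlapping values, and was not called. SLC16A3 made up 0.720% of the FPKM of both carriers in BT549 parental control cells and 12.7% in CE control cells. SLC16A3 shares exon sequence on the opposite strand with CSNK1D, and which strand the authors counted is not given in the sources used here, so its level is uncertain.

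**Figure D2:**
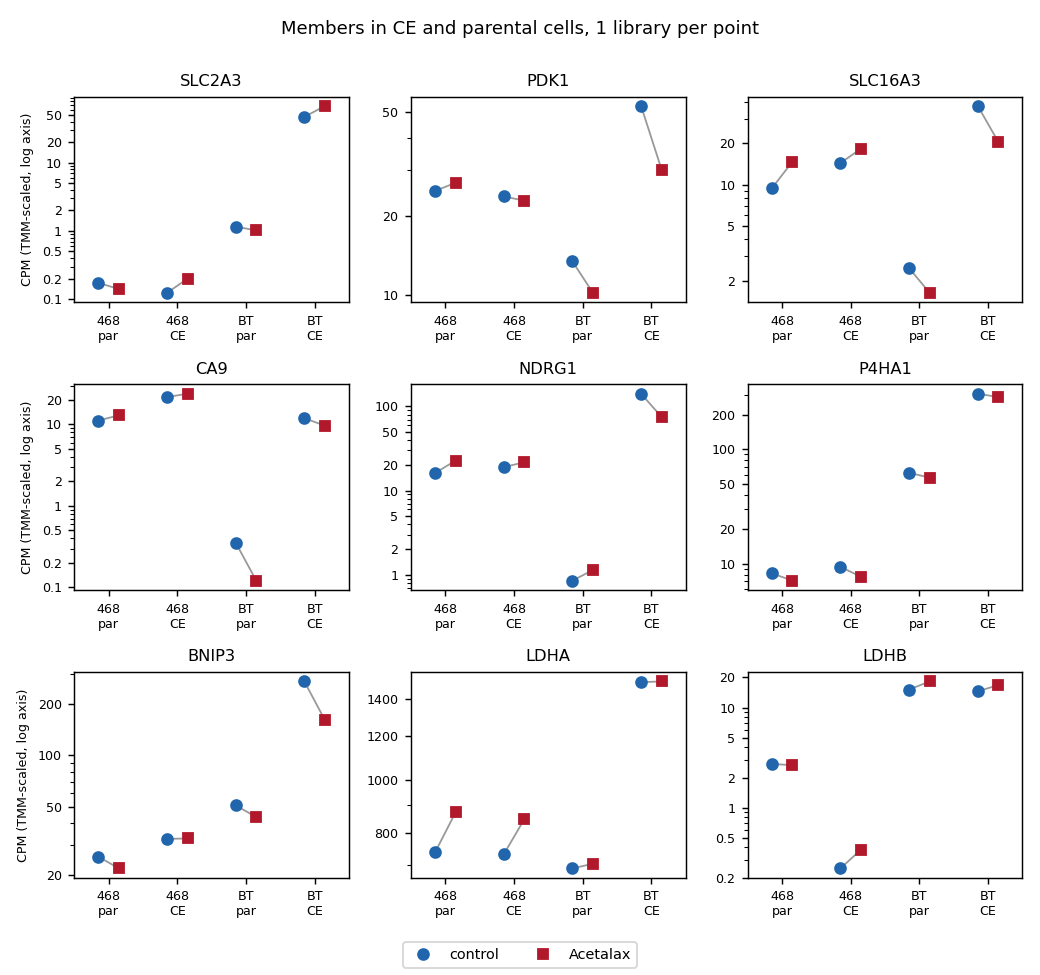
TMM-scaled CPM on a log axis in each library for 9 members, by line (MDA-MB468 on the left and BT549 on the right of each panel) and by parental (par) or CE cells; circles are control, squares Acetalax, and lines join the 2 libraries of a background. In 8 of the 9 panels the BT549 CE libraries lie above the BT549 parental ones, and LDHB is low in MDA-MB468 CE cells.

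Among the HIF targets outside glycolysis, NDRG1, a stress-responsive gene, had the largest difference of all 41 members. It was at 0.850 and 1.14 CPM in BT549 parental cells (36 and 47 counts) and at 142 and 74.8 CPM in BT549 CE cells (7422 and 3275 counts), which gave a log2 fold change of 6.76 (SE 0.42, adjusted p = 8.61e-05). The 4 MDA-MB468 libraries lay in between, from 16.2 to 22.8 CPM. CA9 (ENSG00000107159, hg19 chr9:35673853-35681156), a membrane carbonic anhydrase that handles acid at the cell surface, was at 0.354 and 0.121 CPM (15 and 5 counts) against 11.9 and 9.68 CPM, with a log2 fold change of 5.49 (SE 0.40, adjusted p = 0.000179). Its level in BT549 CE cells was close to that of MDA-MB468 parental cells (11.2 and 13.0 CPM). The related CA12 went from 14.4 and 10.9 to 32.9 and 24.0 CPM (log2 fold change 1.17, SE 0.21, adjusted p = 0.0110). CA9 overlaps ARHGEF39 on the opposite strand and carries the same strand limit as SLC16A3. Exon overlap with a gene on the opposite strand was also annotated for ALDOA, ALDOC, TPI1, GAPDH, ENO1, PDK1, BNIP3L, P4HA1 and P4HA2. Among members not called in BT549 CE cells it was annotated for SLC2A1, HK1, SLC16A1, HIF1A and VEGFA as well. How far it affects their levels was not tested.

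The collagen prolyl hydroxylases, which stabilise collagen in the secretory pathway, also rose in BT549 CE cells. P4HA1 was at 62.2 and 56.4 against 305 and 285 CPM (log2 fold change 2.32, SE 0.13, adjusted p = 5.92e-05) and P4HA2 at 69.0 and 67.7 against 215 and 191 CPM (log2 fold change 1.58, SE 0.21, adjusted p = 0.00309). BT549 CE values were the highest of all 8 libraries in both genes. The mitophagy receptors BNIP3 and BNIP3L, which mark mitochondria for removal, were called as well. BNIP3 went from 50.8 and 43.5 to 271 and 160 CPM (log2 fold change 2.17, SE 0.20, adjusted p = 0.000487) and BNIP3L from 107 and 111 to 235 and 172 CPM (log2 fold change 0.89, SE 0.17, adjusted p = 0.0147). CITED2, a feedback inhibitor that competes with HIF for its coactivator, was at 263 and 368 against 432 and 564 CPM (log2 fold change 0.67, SE 0.11, adjusted p = 0.00872).

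Several well-known HIF targets were not called in BT549 CE cells. VEGFA, the main angiogenic factor, was at 243 and 221 CPM in parental and 182 and 176 CPM in CE cells, a log2 fold change of -0.37 in the direction opposite to the called members. ADM (a vasodilator peptide), ANGPTL4 (a secreted lipase inhibitor) and KDM3A (a histone demethylase) had log2 ratios of 0.35, 0.08 and 0.58 between the control libraries. The alpha subunits were not called either. EPAS1 was at 175 and 136 against 191 and 201 CPM. HIF1A was at 122 and 142 against 167 and 227 CPM (log2 fold change 0.57, adjusted p = 0.0867). It passed without the filter on low counts (0.61, adjusted p = 0.00630 by edgeR) but not with DESeq2 or with its size factors. The oxygen sensor EGLN1 lay between 38.5 and 63.8 CPM in BT549, while EGLN3 had 0 to 2 counts in every BT549 library, under the limit of 3 counts, and between 54.2 and 110 CPM in MDA-MB468.

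For 3 members not called with all libraries, the fit without the Acetalax-treated libraries of BT549 is given as well. Without those libraries each BT549 background keeps 1 library, so only the log2 fold change is given for that fit. Called members moved too. Between the BT549 controls alone the log2 ratio was 7.36 in NDRG1 and 5.32 in SLC2A3, against fitted values of 6.76 and 5.69. PFKFB4, a bifunctional enzyme that sets the level of the phosphofructokinase activator fructose-2,6-bisphosphate, was at 2.55 and 1.26 CPM in BT549 parental cells and at 33.7 CPM in the CE control but 2.08 CPM in CE cells with Acetalax. With all 8 libraries its log2 fold change was 2.87 (SE 0.93, adjusted p = 0.0854), and without the treated BT549 libraries it was 3.73. ANKRD37, a small ankyrin-repeat gene, had 39 and 49 counts against 123 and 89 and a log2 fold change of 1.04 (adjusted p = 0.0875), or 1.35 without the treated libraries. ANKRD37 overlaps UFSP2 on the opposite strand. ENO2, with the levels given above, had 0.54 (adjusted p = 0.335) with all libraries and 0.76 without the treated ones. The 22 called members were shared with the alternatives that kept all 8 libraries, which called 22 to 25.

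In MDA-MB468, only 1 of the 41 members (2.44%) passed the test between CE and parental cells, against 1.58% of all genes tested (0.503% higher and 1.08% lower). It was LDHB (ENSG00000111716, hg19 chr12:21788276-21910791), at 2.74 and 2.65 CPM in parental cells (142 and 132 counts) and 0.247 and 0.382 CPM in CE cells (12 and 19 counts), a log2 fold change of -3.10 (SE 0.28, adjusted p = 0.0026). All 4 BT549 libraries held 642 or more counts of it. ANGPTL4 had 19 and 48 counts in parental and 95 and 325 counts in CE cells (log2 fold change 2.63, SE 0.60, adjusted p = 0.0942). Without the treated libraries of that line, which leaves 1 library per background, its log2 fold change was 2.39. CA9 was at 11.2 and 13.0 against 21.7 and 23.8 CPM, a log2 fold change of 0.91 (SE 0.29, adjusted p = 0.246).

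Between the MDA-MB468 control libraries, 5 members were at least 1.5-fold higher in CE cells (CA9, ADM, ANGPTL4, ANKRD37 and SLC16A3) and 1 at least 1.5-fold lower (LDHB), with 12% and 9.36% of all genes tested past the same fold. In BT549 the same count was 23 higher and 0 lower, with 20.7% and 17.7% of all genes. The median log2 ratio of the members in MDA-MB468 was 0.12. The core enzymes TPI1, GAPDH, PGK1, PGAM1, ENO1, PKM and LDHA had log2 ratios between -0.03 and 0.09 there.

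The difference between the lines was tested directly. The CE effect was larger in BT549 than in MDA-MB468 for 17 of the 41 members (41.5%) and smaller for 0, against 6.13% of all genes tested (4.21% larger and 1.92% smaller). Of these, 16 were also called higher in BT549 CE cells, and LDHB was the other, through its lower level in MDA-MB468 CE cells. The largest differences on the log2 scale were 6.70 in NDRG1 (SE 0.51, adjusted p = 0.000439), 5.66 in SLC2A3 (SE 0.56, adjusted p = 0.00136) and 4.57 in CA9 (SE 0.49, adjusted p = 0.00193). Among core enzymes, LDHA differed by 1.14 (SE 0.16, adjusted p = 0.00666), PGK1 by 1.17 (SE 0.16, adjusted p = 0.00614) and GAPDH by 0.73 (SE 0.13, adjusted p = 0.0198). Members called in BT549 whose difference between lines missed the threshold were BNIP3L, ENO1, ALDOA, PGAM1, GPI and PKM. The CE effect of ANGPTL4 was smaller in BT549 (-2.21, adjusted p = 0.155 by edgeR). It was called with DESeq2 (adjusted p = 0.0488) and by edgeR without the filter on low counts.

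**Figure D3:**
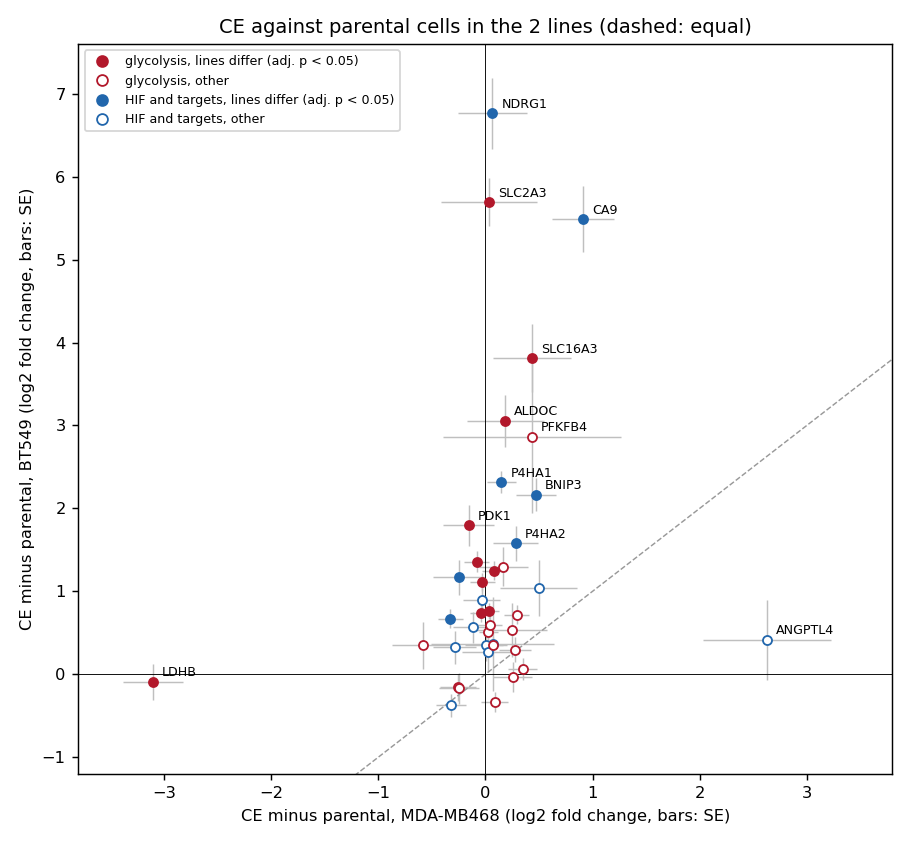
Fitted log2 fold change of CE against parental cells in MDA-MB468 (x) and BT549 (y) for 40 members, with standard errors as bars; filled points differ between lines at an adjusted p under 0.05, red is glycolysis and blue HIF subunits and targets. Most points rise above the dashed line of equal change near 0 on the x axis, with NDRG1, SLC2A3 and CA9 at the top, LDHB far to the left and ANGPTL4 far to the right.

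The second comparison asked what 6 hours of Acetalax did to the same genes. Over the 4 backgrounds, 1 of the 41 members passed the test, against 5% of all genes tested (2.72% higher and 2.27% lower). CITED2 rose in each background, from 133 to 192 CPM in MDA-MB468 parental cells, from 107 to 151 in MDA-MB468 CE cells, from 263 to 368 in BT549 parental cells and from 432 to 564 in BT549 CE cells. Its log2 fold change was 0.47 (SE 0.08, adjusted p = 0.0367), and leaving out any one background kept the value between 0.47 and 0.51 but moved the adjusted p to between 0.0569 and 0.176. The lactate carrier SLC16A1 and the phosphofructokinase PFKP were also higher with Acetalax in all 4 backgrounds without passing, at log2 fold changes of 0.51 (SE 0.12, adjusted p = 0.0514) and 0.53 (SE 0.13, adjusted p = 0.0554). CA12 was lower in all 4, with a log2 fold change of -0.57 (SE 0.16, adjusted p = 0.0703).

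When the response was fitted apart for parental and CE cells, edgeR called 0 of 19693 genes in either, and so 0 members. At an unadjusted p under 0.05 there were 1710 genes in parental and 2311 in CE cells, including 3 members in each, and DESeq2 called 90 and 357 genes, with 0 and 2 members. The test of a different response between CE and parental cells called 0 genes by either tool, with 91 genes and 0 members at an unadjusted p under 0.05 by edgeR. With 2 residual degrees of freedom these fits had little power, and a missed threshold does not show equal responses.

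The test of a different response between the lines called 1 of the 41 members, ANGPTL4. At an unadjusted p under 0.05 by edgeR there were 12 members and 3403 of 19693 genes. The median log2 difference was -0.20 over the members and -0.01 over all genes tested. ANGPTL4 was at 0.367 CPM in MDA-MB468 parental control cells and 0.965 with Acetalax, and at 1.96 and 6.53 CPM in MDA-MB468 CE cells. In BT549 it was at 72.0 and 43.0 CPM in parental and 76.0 and 84.6 CPM in CE cells, so it was higher with Acetalax in both MDA-MB468 backgrounds and in 1 of the 2 BT549 backgrounds. The response of BT549 minus that of MDA-MB468 was -1.93 on the log2 scale (SE 0.36, adjusted p = 0.0472), and 1.78% of all genes tested were called (0.533% higher and 1.25% lower in BT549). ADM (-1.96, adjusted p = 0.058), SLC16A3 (-1.26, adjusted p = 0.0564) and ENO2 (-1.10, adjusted p = 0.0645) missed the threshold. All 3 passed with DESeq2's size factors in place of TMM. PFKFB4 had the lowest value of the members, -2.71 (SE 0.82, adjusted p = 0.157 by edgeR), and was called with DESeq2 (adjusted p = 0.0322).

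The separate pairs show where the values lie, with no test because each condition had 1 library. In MDA-MB468 parental cells, 8 members were at least 1.5-fold higher with Acetalax and 1 was at least 1.5-fold lower, against 15.5% and 17.4% of all genes. ADM stood out, with 344 counts in the control and 2352 with Acetalax, a log2 ratio of 2.83 (95% counting interval 2.67 to 2.99). PFKFB3, an enzyme of the same family as PFKFB4, went from 2339 to 5518 counts (log2 ratio 1.30, interval 1.23 to 1.37). In MDA-MB468 CE cells 8 members were higher and 2 lower, against 11.5% and 13.4% of all genes, and ADM went from 636 to 1813 counts (1.47, interval 1.34 to 1.60). PFKFB3 went from 2145 to 2735 counts there, a log2 ratio of 0.31. ENO2 and PFKP were past the fold in both MDA-MB468 backgrounds, and EGLN3 went from 2809 to 4435 counts in parental and from 3716 to 5458 counts in CE cells, log2 ratios of 0.72 and 0.52.

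**Figure D4:**
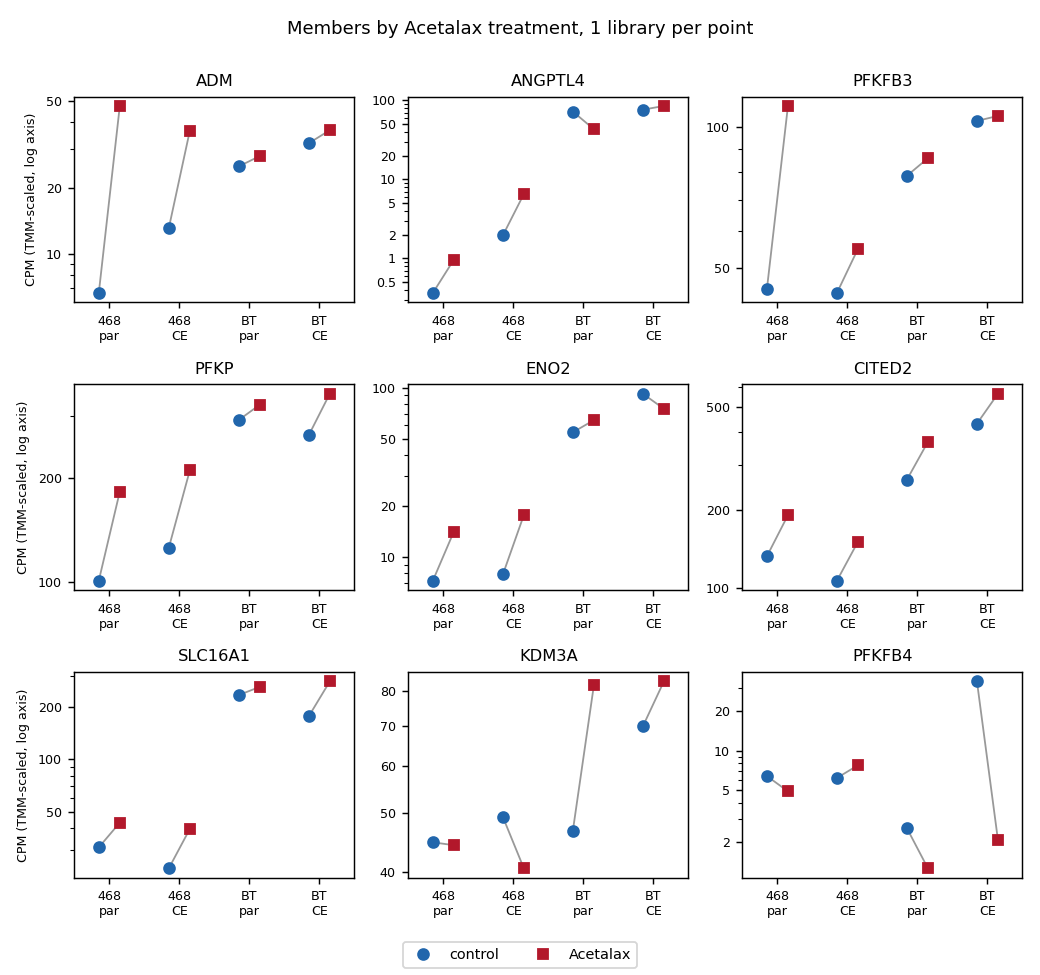
TMM-scaled CPM on a log axis in each library for 9 members, with circles for control and squares for Acetalax in the 4 backgrounds (MDA-MB468 left, BT549 right; par, parental). CITED2, PFKP and SLC16A1 are higher with Acetalax in all 4 backgrounds, ADM and ENO2 rise steeply in MDA-MB468, and PFKFB4 drops from 33.7 to 2.08 CPM in BT549 CE cells.

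In BT549 parental cells 1 member was at least 1.5-fold higher with Acetalax and 4 were at least 1.5-fold lower, against 14.2% and 13.6% of all genes. KDM3A went from 1982 to 3371 counts (log2 ratio 0.80, interval 0.72 to 0.88), and the lower members were PFKFB4, SLC16A3, CA9 and ANGPTL4, of which CA9 had only 15 and 5 counts. In BT549 CE cells 1 member was higher (SLC16A1, from 9205 to 12202 counts) and 5 were lower, against 16.4% and 25.2% of all genes. Scaled by total counts, the same pair held 0 members higher and 8 lower, with 2530 genes higher and 6117 lower in place of 3222 and 4953. PFKFB4 (ENSG00000114268, hg19 chr3:48555117-48599448) had the lowest ratio, from 1766 to 91 counts, a log2 ratio of -4.01 (interval -4.32 to -3.71). The others were NDRG1 (-0.92), SLC16A3 (-0.87), PDK1 (-0.81) and BNIP3 (-0.75). These 5 were also among the members high in the BT549 CE control, and since that library is the reference here and the numerator of the CE ratio, the 2 ratios are not independent. SLC2A3, also high in that control, lay on the other side of 0 with a log2 ratio of 0.53. The payoff enzymes other than ENO2, along with LDHA, had log2 ratios between -0.17 and 0.05 there.

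**Figure D5:**
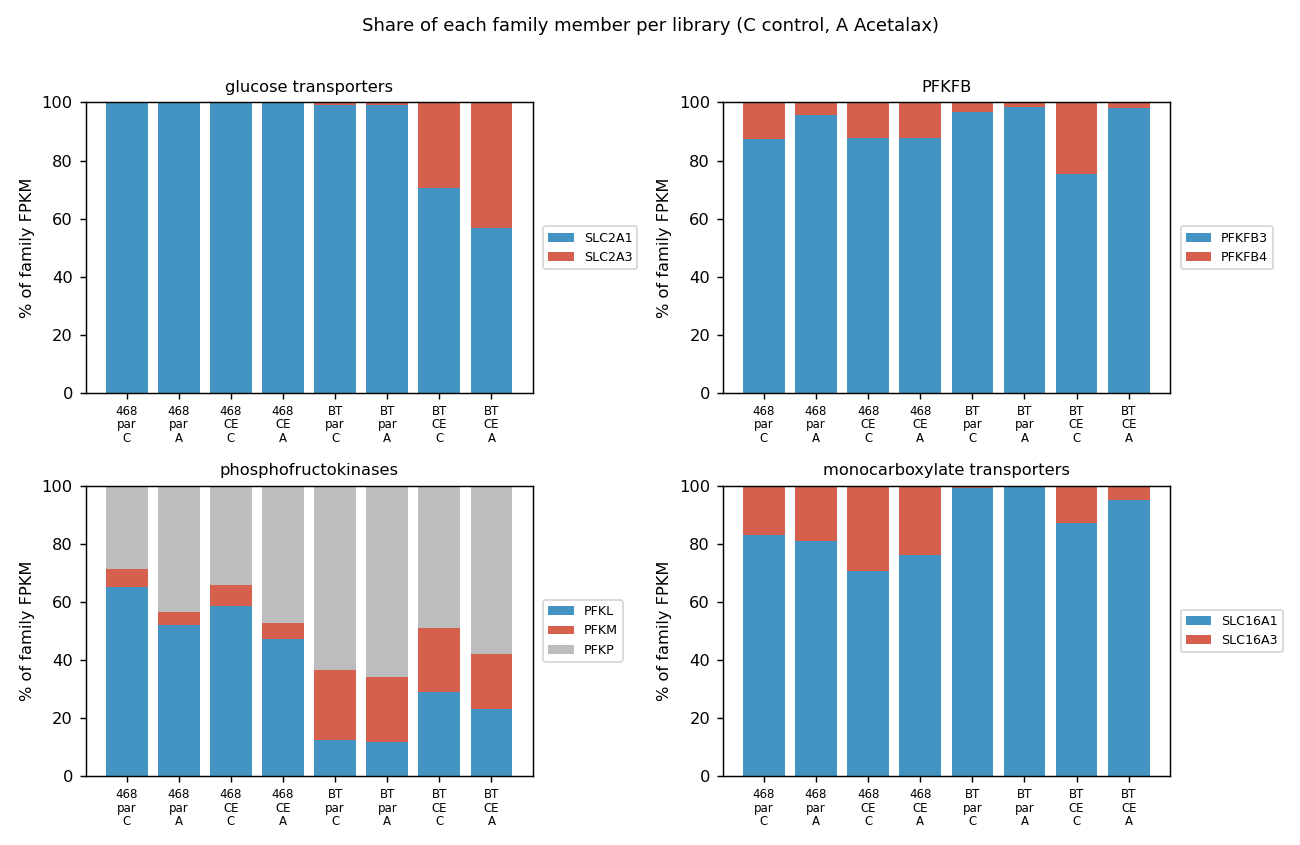
Share of each member in the summed FPKM of its family (percent, 0 to 100) in the 8 libraries, for glucose transporters, PFKFB enzymes, phosphofructokinases and monocarboxylate transporters. SLC2A3 is visible mainly in the BT549 CE libraries (29.4% and 43.4%), and the PFKFB4 share reaches 24.7% in the BT549 CE control and 1.93% with Acetalax.

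Other genes of the same pathways were taken from 2 lists that hold none of the members. Of 43 other hypoxia and HIF genes, 11 were higher (25.6%) and 0 lower in BT549 CE cells, against 8.16% and 5.39% of all genes tested, with a median log2 fold change of 0.59 against -0.03 over all genes. Of 40 other genes of glycolysis and pyruvate use, 34 passed the filter, of which 6 were higher (17.6%) and 3 lower (8.82%), with a median of 0.12. The largest rises were in SLC2A10, a glucose transporter (0 and 0 counts in parental, 18 and 4 in CE cells, adjusted p = 0.0156), PPFIA4 (53 and 25 against 2040 and 530 counts, log2 fold change 4.70, SE 0.53, adjusted p = 0.00138) and TXNIP, a brake on glucose uptake (892 and 189 against 5845 and 2126 counts, 2.90, SE 0.33, adjusted p = 0.00135). The largest falls were in FLT1 (3 and 0 against 0 and 0 counts, too few for a fold), the transporter SLC2A12 (59 and 43 against 13 and 4 counts, -2.78, adjusted p = 0.0143) and the chemokine receptor CXCR4 (13 and 13 against 2 and 4 counts, adjusted p = 0.0992).

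In MDA-MB468, 0 genes of either list were called higher in CE cells and 1 of each was called lower (2.33% and 2.94% of those tested), against 0.503% and 1.08% of all genes. The lysyl oxidase gene LOX, a collagen cross-linker, had 147 and 286 counts in parental and 66 and 99 counts in CE cells (log2 fold change -1.32, SE 0.22, adjusted p = 0.0322). SLC2A12 (-1.38, adjusted p = 0.204) and CXCR4 (1 and 0 against 0 and 0 counts) had the other largest falls, and HKDC1 (2.37, adjusted p = 0.0721), SLC2A10 (1.28, adjusted p = 0.0767) and BHLHE41 (1.15, adjusted p = 0.0786) the largest rises, none of which passed.

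With Acetalax over the 4 backgrounds, 2 of the other hypoxia genes were higher and 2 lower (4.65% each), and 0 and 2 (5.88%) of the other glycolysis genes, against 2.72% and 2.27% of all genes. MAFF, a small stress-responsive transcription factor, had the largest rise, from 1131 to 6961 counts in MDA-MB468 parental, 1022 to 2366 in MDA-MB468 CE, 2407 to 10002 in BT549 parental and 983 to 13319 in BT549 CE cells (log2 fold change 2.48, SE 0.41, adjusted p = 0.0361). FLT1 (2.00, adjusted p = 0.179, with at most 54 counts) did not pass. TXNIP fell with Acetalax, from 892 to 189 and from 5845 to 2126 counts in BT549, and had at most 4 counts in MDA-MB468 (log2 fold change -1.76, SE 0.31, adjusted p = 0.0376). DDIT4, an inhibitor of mTORC1 induced by hypoxia and stress, went from 8323 to 2172, 11304 to 3815, 15545 to 11510 and 30431 to 12091 counts in the same order of backgrounds (-1.24, SE 0.22, adjusted p = 0.0379). RAB20 was lower in all 4 without passing (-1.26, adjusted p = 0.0928).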

How the data were processed

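Polyadenylated RNA was sequenced as paired reads of 101 bases, which the authors aligned to hg19 with STAR, whose GeneCounts mode gave the reads per gene. The deposited values are raw counts, whole numbers without normalization; the annotation and strand column are not given in the sources used here. Each gene identifier was kept 1 time (55679 of 58154 entries, 3 with differing repeats), and 0 entries lacked a gene.

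Counts were scaled by TMM. Differences came from the quasi-likelihood test of edgeR (version 4.0.16 under R 4.3.3) after filterByExpr, with Benjamini-Hochberg adjustment over 19693 genes at a threshold of 0.05. With 1 library per condition, all 8 libraries were fitted with an intercept for each of the 4 backgrounds and either 1 Acetalax term (3 residual degrees of freedom) or one per cell type or line (2). The CE tests assume 1 common Acetalax effect, and p-values measure the spread between these libraries only. Pair ratios used TMM-scaled CPM with 0.5 counts added, a 1.5-fold threshold and 95% counting intervals, which cover counting error only. A gene with 3 counts or fewer in both libraries got no ratio. FPKM used total counts and merged GENCODE exon lengths for hg19. Promoter windows came from RefSeq (GRCh38.p14) and were searched for ACGTG on both strands. Named genes were all 41 members, with library values for those past 1.5-fold in a pair or called, and the 3 largest rises and falls among the other pathway genes, of which 1 is not reported here. Members and lists were chosen with earlier results of these data known. Scripts were tested on simulated data. Alternatives were DESeq2 (1.42.0) or its size factors, no filter, left-out libraries, other scalings, log2(FPKM + 1), 5 counts added and a 2-fold threshold.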

Additional observations from a re-analysis of the deposited data

Results flagged for a closer look

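The CE effect differed between the lines by a test of the difference itself (BT549 minus MDA-MB468, edgeR's quasi-likelihood test) in 17 members. On the log2 scale the difference was 6.70 in NDRG1, 5.66 in SLC2A3, 4.57 in CA9, 3.38 in SLC16A3, 3.01 in LDHB, 2.87 in ALDOC, 2.17 in P4HA1, 1.95 in PDK1 and 1.69 in BNIP3. It was 1.44 in PFKL, 1.42 in CA12, 1.30 in P4HA2, 1.17 in PGK1, 1.14 in LDHA, 1.00 in CITED2, 0.78 in TPI1 and 0.73 in GAPDH. The adjusted p ranged from 0.000439 in NDRG1 to 0.0464 in P4HA2. In LDHB the fall lay in MDA-MB468 CE cells, and in CITED2 the fitted values had opposite signs, 0.67 in BT549 and -0.33 in MDA-MB468, the latter with an adjusted p of 0.301.

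The response to Acetalax differed between the lines in ANGPTL4, by -1.93 on the log2 scale (SE 0.36, adjusted p = 0.0472), with control levels of 0.367 and 1.96 CPM in MDA-MB468 and 72.0 and 76.0 CPM in BT549.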

How the results depend on the processing

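No called fold change and no pair ratio past 1.5-fold changed sign under the alternatives run, though of 59 such ratios 49 moved by more than the counting interval on log2(FPKM + 1), 15 with total counts and 2 with DESeq2's size factors. Without the filter on low counts edgeR tested 37154 genes. For Acetalax over 4 backgrounds it called 3585 genes (9.65%) and 7 of the 41 members. It called 643 (1.73%) and 1 in parental cells, 1080 (2.91%) and 5 in CE cells, and 3 genes (0.00807%) for the response of CE against parental cells. For the response of BT549 against MDA-MB468 it called 1632 (4.39%) and 7, and for CE in MDA-MB468 1135 (3.05%) and 3. The CE effect between lines held 2395 genes (6.45%), with 23 members larger in BT549 and ANGPTL4 smaller. DESeq2 called 2913 of 19693 genes (14.8%) and 5 members for Acetalax over 4 backgrounds. It called 90 genes (0.457%) and 0 members in parental cells, and 357 (1.81%) and 2 in CE cells. For the response between lines it called 941 (4.78%) and 6, and for CE in MDA-MB468 780 (3.96%) and 2. The CE effect between lines held 2108 genes (10.7%), with 21 members larger in BT549 and ANGPTL4 smaller. With DESeq2's size factors in edgeR the response between lines held 4 members (467 genes, 2.37%). Without the treated libraries of a line, the CE fit kept 1 library per background there, so its calls are not given. Leaving out each background in turn gave 0 to 554 genes and 0 to 0 members for Acetalax over 4 backgrounds, with 0 genes without MDA-MB468 parental cells. The cause of these shifts was not tested.

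At a 2-fold threshold the CE control pair of MDA-MB468 held 1 member higher and 1 lower, with 1151 and 1009 of 19693 genes. The CE control pair of BT549 held 17 and 0 (2337 and 1860 genes). For Acetalax, MDA-MB468 held 3 and 0 (1579 and 1563) in parental and 3 and 0 (1051 and 1250) in CE cells. BT549 held 0 and 2 (1425 and 1127) in parental and 0 and 1 (1655 and 2832) in CE cells. On log2(FPKM + 1) at 1.5-fold, Acetalax in MDA-MB468 parental cells gave 5 and 0 (982 and 821). Its CE cells gave 4 and 0 (489 and 499). For BT549 the same scale gave 1 and 1 (453 and 444) in parental and 0 and 7 (907 and 1848) in CE cells. Scaling by total counts moved the median of all genes in the BT549 CE Acetalax pair from -0.05 to -0.21. The Acetalax fits already set each treated library against the control of its own background. A further block by replicate number could not be fitted because the labels carry none and each condition has 1 library. Fold changes of CA9, NDRG1 and SLC2A3 in BT549 rest on 5 to 49 counts in the parental libraries.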

Other observations

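The lines differed at baseline in several members, given here per length (FPKM) in the parental control libraries with no test, since each had 1 library. TPI1 was at 326 FPKM in BT549 and 76.1 in MDA-MB468, and ENO1 at 911 and 297. ANGPTL4 was at 29.2 and 0.158 FPKM, P4HA1 at 20.2 and 2.85, and SLC16A1 at 36.7 and 5.23. In the other direction, PFKL was at 7.39 FPKM in BT549 and 31.5 in MDA-MB468, CA9 at 0.222 and 7.44, NDRG1 at 0.0710 and 1.43, and EGLN3 at 0.00643 (2 counts) and 7.85. GAPDH (722 and 702), PGK1 (101 and 93.5) and HIF1A (23.8 and 27.3) lay close together.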
